A study of Mus musculus with 2 samples.

Results

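The genes described here are 40 mouse genes of the lysosome. They comprise 11 cathepsins and other proteases, 6 glycosidases, 7 genes of lipid handling and cofactor precursors, 8 membrane proteins, 5 genes of the proton pump and 3 transcriptional regulators. They were chosen by symbol for their known roles, without a rule on a measured value but with earlier results of these data known. All 40 symbols were found among the 55536 annotated genes of the deposited tables. The RNA came from the nuclei, called nucleoplasm in another label, of primary bone marrow-derived macrophages of strain C57BL/6J. The macrophages had been stimulated for 25 min with 100 ng/ml of lipid A, the membrane anchor of bacterial lipopolysaccharide and the ligand of the receptor TLR4. Total RNA was depleted of ribosomal RNA and sequenced in 2 libraries, made from 500 ng (replicate 1) and 1 µg (replicate 2) of RNA. Both libraries received the same treatment and form 1 group. Every value below is therefore a level in the nuclear fraction of treated cells. No response to lipid A was measured, and no test between groups was possible. The replicates are numbered as biological but name the same donor, so an SD given here is the spread between these libraries.

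Lysosomes are acidic organelles in which proteases, glycosidases and lipases break down material taken up by phagocytosis or delivered by autophagy. A proton pump of the vacuolar ATPase type keeps their lumen acid, heavily glycosylated membrane proteins line them, and saposins and other small proteins help the enzymes reach lipids. Many lysosomal genes are targets of the related transcription factors TFEB, TFE3 and MITF, which bind E-box sequences in promoters. Macrophages are rich in lysosomes, and the expression of several cathepsins is a hallmark of these cells.

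Levels are given as TPM, a measure of transcript abundance that divides the estimated count of a gene by its length and by the library's total and so allows genes to be compared. The tables held 13506939 estimated counts in replicate 1 and 17932332 in replicate 2. The macrophage identity of the cells was visible in 10 of 10 macrophage markers, each with 1 TPM or more in both libraries and led by the lysozyme gene Lyz2 at 1708 and 1588 TPM. Osteoclasts and melanocytes also use some of the 40 genes. Of 8 osteoclast markers, 2 reached that level, led by the transcription factor gene Nfatc1 at 19.3 and 12.8 TPM, and summed levels of the list were 30.01 and 20.2 TPM. Of 6 melanocyte markers none did, with summed levels of 0.620 and 0.280 TPM. Among markers of other cells of the marrow, 2 of 7 for neutrophils, 1 of 6 for T and NK cells (Cd4, at 29.5 and 23.8 TPM, with Cd3e at 0 counts) and 1 of 7 for red cells and platelets (Pf4, at 70.3 and 48.3 TPM) reached 1 TPM. None did for B cells, mast cells, dendritic cells or fibroblasts. Mitochondrial genes, which are not transcribed in the nucleus, held 4.68% and 5.06% of the counts, so the fraction was not made of nuclear RNA alone. In a bulk sample, fewer cells expressing a gene and less RNA of it in each cell cannot be told apart.

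All 40 lysosomal genes were detected, meaning 1 TPM or more in both libraries. The same held for 44.5% of the 22028 protein-coding genes. The median of log2(TPM + 1) over the 40 genes was 7.41 in replicate 1 and 6.98 in replicate 2, a mean of 7.20 ± 0.31 (SD, n = 2). Over the 9806 protein-coding genes that were detected it was 3.40 ± 0.33. Together the 40 genes took 4.45% ± 0.0061 of all counts. That total was unevenly shared, since Psap, Gpnmb, Ctsb and Ctsd alone held 70.4% ± 0.763 of it. By mean TPM, 2 of the 40 genes stood among the 10 highest protein-coding genes, 7 among the 50 highest, 17 among the 200 highest and 29 among the 500 highest.

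As deposited, TPM was higher in replicate 1 for 38 of the 40 genes. The same direction held for most genes of the tables: replicate 2 relative to replicate 1 had a median log2 ratio of -0.42 over the 14584 genes with at least 10 counts in both. Of these genes 11.2% had the higher TPM in replicate 2, beside 2 of the 40. Pairs of values below are given in the order replicate 1, replicate 2.

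**Figure D1:**
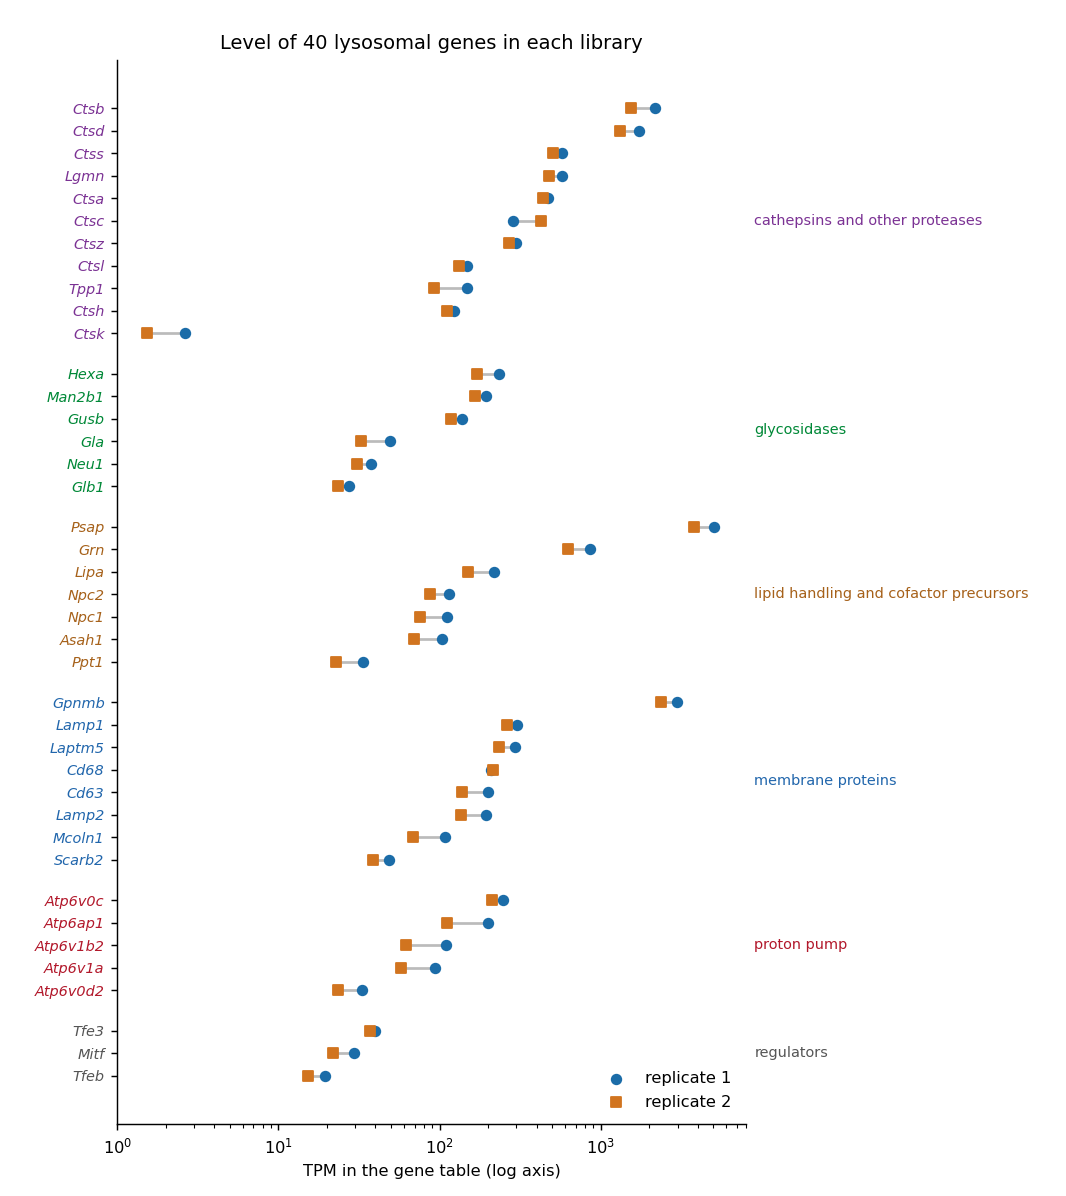
Level of each of the 40 lysosomal genes in TPM on a log axis, with replicate 1 as circles and replicate 2 as squares, grouped by role and joined by a line per gene. Psap, Gpnmb, Ctsb and Ctsd stand to the right of all others in both libraries, and Ctsk stands alone on the left.

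The proteases were the role group with the highest levels, with a median log2(TPM + 1) of 8.22 and 8.75 (8.48 ± 0.38). Ctsb, on chromosome 14 (chr14:63122462-63145923, mm10), encodes cathepsin B, a cysteine protease, and had 2167 and 1536 TPM. Ctsd (chr7:142375911-142388038) encodes the aspartic protease cathepsin D and had 1730 and 1327 TPM. These ranked 12th and 14th among all protein-coding genes. Below them lay a group within a narrow range. Ctss, which encodes the cathepsin that trims the invariant chain of MHC class II, had 579 and 508 TPM. Lgmn, the gene of legumain, which cleaves after asparagine and processes other cathepsins, had 578 and 475. Ctsa encodes the carboxypeptidase that also protects neuraminidase and beta-galactosidase, and it had 469 and 438 TPM. The libraries' ranges of Ctss and Lgmn overlapped, and the value of Ctsa in each library lay below both.

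Ctsc (chr7:88278085-88310888) encodes cathepsin C, which activates granule serine proteases, and was the exception to the direction of the group with 286 and 429 TPM. Ctsz, a carboxypeptidase gene, had 297 and 270 TPM. The other proteases were lower by a step. Ctsl, the gene of cathepsin L, had 149 and 132 TPM. Tpp1, a tripeptidyl peptidase gene, had 148 and 92.1, and Ctsh, an aminopeptidase gene, had 122 and 111. In replicate 2 the order of Tpp1 and Ctsh was the reverse of that in replicate 1. Ctsk encodes cathepsin K, the collagen-degrading protease best known from osteoclasts. It was the lowest of the 40 genes at 2.65 and 1.54 TPM, from 47 counts in each library.

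The glycosidases had a median of 6.38 and 5.98 (6.18 ± 0.28) and split into a higher and a lower set of 3 genes each. Hexa, which encodes the alpha subunit of beta-hexosaminidase, had 234 and 172 TPM. Man2b1, the lysosomal alpha-mannosidase gene, had 194 and 166. Gusb, the beta-glucuronidase gene, had 138 and 119. All 3 were above the other 3 in both libraries. Gla, which encodes alpha-galactosidase A, had 49.4 and 32.5 TPM. The sialidase gene Neu1 had 37.6 and 30.8, and Glb1, the beta-galactosidase gene, 27.5 and 23.5. The values of Gla and Neu1 overlapped across the libraries.

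Among the genes of lipid handling and cofactor precursors the median was 6.85 and 6.46 (6.65 ± 0.27). Psap (chr10:60277627-60302597) was the highest of the 40 genes with 5036 and 3788 TPM and ranked 4th among all protein-coding genes. Its product, prosaposin, is cut into the saposins that present sphingolipids to their hydrolases. Grn encodes progranulin, which is cut into granulins in the lysosome, and had 854 and 629 TPM. Lipa, the gene of lysosomal acid lipase, had 219 and 149.6. The remaining members lay between 22.6 and 114 TPM. Npc2 and Npc1 encode the soluble and the membrane protein that together export cholesterol from the lysosome. Npc2 had 114 and 87.2 TPM and Npc1 had 112 and 75.6, so their ranges overlapped. Asah1, the acid ceramidase gene, had 104 and 69.4, and Ppt1, which encodes a palmitoyl-protein thioesterase, had 33.4 and 22.6.

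The membrane proteins had a median of 7.69 and 7.44 (7.56 ± 0.18). Gpnmb (chr6:49036546-49070929) encodes a type I transmembrane glycoprotein that is abundant in phagocytes and had 2993 and 2370 TPM, 9th among protein-coding genes. The next genes lay close together. Lamp1, a main glycoprotein of the lysosomal membrane, had 305 and 262 TPM. Laptm5, expressed in blood cells, had 295 and 233. Cd68, the macrophage sialomucin gene, had 210.1 and 215 and was, with Ctsc, 1 of the 2 genes with the higher TPM in replicate 2. Cd63, a tetraspanin gene, had 201 and 138 TPM. Lamp2, whose product also serves in chaperone-mediated autophagy, had 193 and 136, and the ranges of Cd63 and Lamp2 overlapped. Mcoln1, which encodes the calcium-permeable channel TRPML1, had 108 and 68.5, and Scarb2, the receptor that carries glucocerebrosidase to the lysosome, 48.3 and 38.7.

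Genes of the proton pump had a median of 6.79 and 5.98 (6.39 ± 0.57), the widest spread of any role group. Atp6v0c encodes the proteolipid of the membrane ring and had 247 and 211 TPM. Atp6ap1, an accessory subunit gene, had 199.97 and 111. Atp6v1b2 and Atp6v1a encode the subunits of the ATP-hydrolysing head. They had 110.0 and 62.2 TPM and 94.0 and 57.4 TPM. Atp6v1b2 was thus the higher in each library, while the ranges overlapped. A second set of values, made by the authors without alignment, gave 63.1 and 13.6 TPM against 56.5 and 15.8. There the order changed between the libraries. Atp6v0d2, an isoform known from osteoclasts and macrophages, had 33.1 and 23.4. The regulators were the lowest role group with a median of 4.93 and 4.50 (4.71 ± 0.30). Tfe3 had 39.95 and 36.8 TPM, Mitf 29.4 and 21.7, and Tfeb 19.3 and 15.3. In these values the order Tfe3, Mitf, Tfeb was the same in both libraries, and the 3 ranges did not overlap. In the values made without alignment Tfeb was instead the highest of the 3 in each library, at 28.6 and 8.93 TPM. Mitf had 22.1 and 6.77 there, and Tfe3 20.6 and 7.53.

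The 90 further genes of the lysosomal pathway were lower as a whole than the 40 genes, with a median of 5.11 and 4.64 (4.88 ± 0.33), and 86 of 90 were detected. Of 28 other hydrolases 26 were detected. Galc, the galactosylceramidase gene, had 93.3 and 58.5 TPM. The lowest were Acp5, which encodes the tartrate-resistant phosphatase of osteoclasts, at 0.710 and 1.72 TPM, and Cpvl, a carboxypeptidase gene with 0 counts, which allows up to 0.222 and 0.167 CPM (counts scaled to 1e+06 per library). All 12 other proton pump subunits were detected. The membrane subunit gene Tcirg1 had 624 and 507 TPM, above each of the 5 pump genes among the 40. Atp6v0b had 302 and 203 TPM and Atp6v0a1 had 249 and 177, while Atp6v0e (20.9 and 16.3) and Atp6v1f (15.1 and 12.8) were lowest.

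Of 19 other membrane proteins and transporters 18 were detected. Slc11a1, the phagosomal metal transporter gene, had 129 and 95.8 TPM, the endolysosomal cation channel gene Tpcn2 had 129.7 and 84.4, and the chloride-proton exchanger gene Clcn7 had 114 and 71.4. Mfsd8 had 7.70 and 4.79 TPM and Lamp3, best known from mature dendritic cells, had 1 count in replicate 1 and 0 in replicate 2. All 16 genes of enzyme sorting and granule biogenesis were detected. Lyst, the gene mutated in beige mice, led with 209 and 132 TPM, followed by Rab7 at 70.1 and 46.8 and the mannose 6-phosphate receptor gene M6pr at 57.6 and 42.4. Sort1 (11.2 and 8.04) and Gnptg (8.77 and 6.70) were lowest. Of 15 genes of nutrient sensing at the lysosome 14 were detected. The folliculin partner gene Fnip2 had 304 and 190.0 TPM, Flcn, the folliculin gene, had 72.2 and 50.2, and Fnip1 had 68.5 and 38.7. Lamtor2 had 3.23 and 3.78 TPM and Rragb 0.740 and 0.320.

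**Figure D2:**
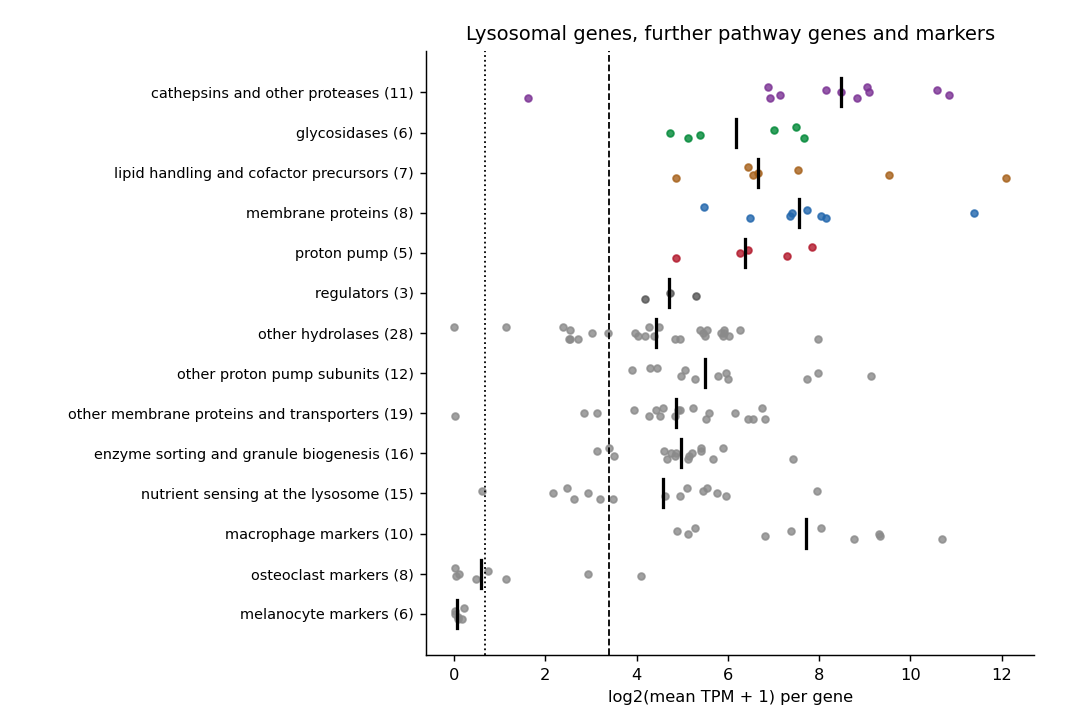
Level of each gene as log2(mean TPM + 1), 1 point per gene, with the role groups of the 40 lysosomal genes in colour and the further pathway and marker lists in grey. Short black lines mark list medians, the dotted line the median of all protein-coding genes (0.67) and the dashed line that of the detected ones (3.40). The medians of all 6 role groups lie to the right of the dashed line, and the melanocyte markers lie near 0.

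Total RNA from nuclei contains transcripts at many stages of processing, and the annotation separates coding transcripts from others of the same gene. Transcripts annotated as retaining an intron held 4.74% and 5.24% of the counts of the 40 genes (4.99% ± 0.35), beside 15.1% and 16.0% (15.5% ± 0.676) over all protein-coding genes. Reads from RNA not yet spliced that fall in such an intron are counted with these transcripts, so these cannot be told apart in these tables. Intron bases in transcripts of other annotated types are not in this share. An example is the processed transcript Lamp2-205, with 14.5% and 15.1% of the Lamp2 counts and 2467 of its 2633 bases outside the exons of coding transcripts. Of the 40 genes 28 have a transcript of this type in the annotation, and their median share was 8.96% against 17.4% over all such protein-coding genes. The total is weighted by the highest genes. Psap has no retained-intron transcript in the annotation, and Ctsd had 0.182% and 0.506% in them. Without the 4 genes with the most counts the share was 8.67% ± 0.0292.

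At least 25% of counts were in retained-intron transcripts in both libraries for 6 of the 28 genes, beside 33.5% of the protein-coding genes with such a transcript. Tfe3 had the highest share with 69.7% and 78.1%. Neu1 followed with 56.6% and 67.8%, and Mcoln1 with 40.8% and 49.6%. Tpp1 had 40.7% and 43.8%, Ctsh 39.5% and 45.7%, and Npc2 28.9% and 25.7%. So a sialidase, a channel, 2 proteases, a cholesterol-binding protein and a regulator made up this set. At the other end, 15 of the 28 genes had under 10% in both libraries, among them Lamp1, Grn, Lgmn and Gpnmb, beside 31.6% of all such genes. In the table made without alignment the same 6 genes passed 25%, beside 41.6% of all such genes, and 11 of the 28 were under 10%, beside 25%. Ctsb was under 10% in the aligned table (5.52% and 4.16%) and not in that one (10.96% and 10.6%). As shares of TPM, which give short transcripts more weight, 11 of the 28 genes passed 25%, beside 49.4% of all such genes, and 8 were under 10%, beside 10.6%. Per length, Tfe3 had 60.03% and 71.7% and Neu1 46.4% and 58.4%. The share was higher in replicate 2 for 17 of the 28 genes, beside 49.4% of all such genes. Asah1 had 25.8% and 12.3%, and Mitf had 14.3% and 23.3%.

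**Figure D3:**
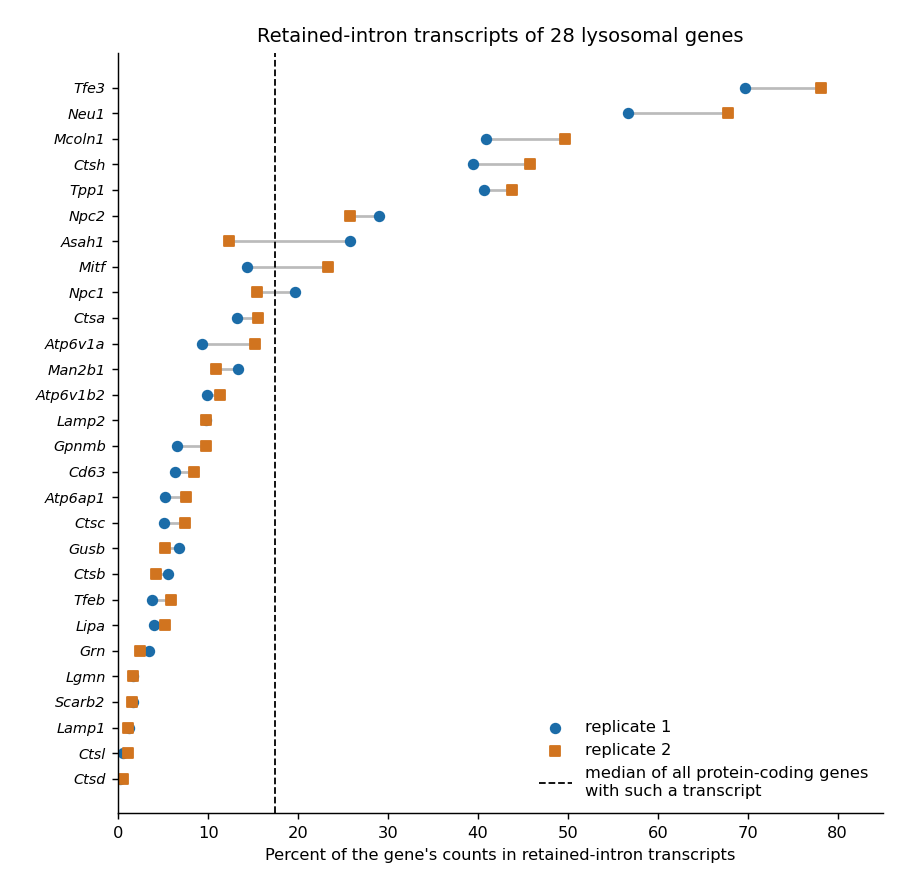
Percent of each gene's counts in transcripts annotated as retaining an intron, for the 28 lysosomal genes that have one, with replicate 1 as circles and replicate 2 as squares. Tfe3 and Neu1 lie above 50% in both libraries, and the dashed line marks the median of all protein-coding genes with such a transcript (17.4%).

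In 4 of these genes the leading retained-intron transcripts keep whole introns between coding exons. Their splice sites are shown because they mark where the counted RNA departs from the coding transcript. Each line gives the last 15 bases of the exon in lower case and the first 15 of the intron in capitals (5′ end), or the last 15 of the intron in capitals and the first 15 of the next exon (3′ end), from the mm10 genome on the strand of the gene.
Neu1 intron 3, 5′ end: ggctcaggcattcagGTTTCACCCTGTGGA
Neu1 intron 3, 3′ end: TCCTCTTCTTAACAGaaacagcgggagcct
Tfe3 intron 6, 5′ end: aacgcgagatctccgGTAAGTGTTAGGGAC
Tfe3 intron 6, 3′ end: CTCACTCTCTTCCAGaaaccgaggcaaagg
Tfe3 intron 8, 5′ end: caagtccaatgatccGTGAGTCTGGGCTGG
Tfe3 intron 8, 3′ end: TCTCGGGCCCCACAGggagatgcgctggaa
Ctsh intron 8, 5′ end: ccttacataggcaagGTAACTGTGGGTGGC
Ctsh intron 8, 3′ end: TTTCACCCCGAACAGgatagttcatgcaga
Tpp1 intron 3, 5′ end: gctctcctcaatatgGTGCCTATCAGTTGG
Tpp1 intron 3, 3′ end: TCTGAATCCCTGCAGgaaagtacctaaccc
All 5 introns begin with GT and end with AG. The Neu1 intron (chr17:34932829-34934002, 1174 bases) is the 3rd of 5 and is kept in Neu1-202, which held 56.6% and 67.8% of the gene's counts. Both Tfe3 introns, of 1226 bases (chrX:7769548-7770773) and 1378 bases (chrX:7771071-7772448), are kept in Tfe3-208, with 37.3% and 38.5% of the counts. A second Tfe3 transcript, Tfe3-212, keeps introns 3 and 9 and held 29.3% and 35.2%. The coding transcript Tfe3-201, whose 9 introns give these numbers, had 0 counts in both libraries, and 3.58% and 2.55% of the counts in the table made without alignment. The Ctsh intron (chr9:90067109-90068404, 1296 bases) is kept in Ctsh-203, with 30.5% and 28.1%. The Tpp1 intron (chr7:105750331-105751589, 1259 bases) is kept in Tpp1-206, with 33.3% and 38.3%. The main retained-intron transcripts of Mcoln1 and Npc2, Mcoln1-205 and Npc2-203, hold part of an intron only.

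Other transcript types held large shares of a few genes. In Ctsh the leading transcript in both libraries was Ctsh-202, annotated as a target of nonsense-mediated decay, with 39.0% and 30.6% of counts, and the coding transcripts held 21.6% and 23.7%. That lead was not kept in the table made without alignment, where Ctsh-202 had 25.7% and 15.2% and the retained-intron transcript Ctsh-203 had 37.3% and 30.5%. In Gusb such a transcript, Gusb-206, held 23.1% and 38.7%. Atp6v0c-205, a processed transcript with no coding sequence, held 55.4% and 57.8% of the Atp6v0c counts, and 85.2% and 72.9% in the table made without alignment. It is 2567 bases long against 1183 for the coding Atp6v0c-201, and per length the order was the reverse, with 82.3 and 75.2 TPM against 156 and 127 TPM.

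For 36 of the 40 genes the leading transcript by counts was protein coding in both libraries, beside 83.7% of the protein-coding genes with at least 10 counts in both, and the exceptions were Ctsh, Neu1, Atp6v0c and Tfe3. By TPM it was 35 of 40, beside 76.7%, and the exceptions were Ctsh, Gusb, Mitf, Neu1 and Tfe3. In replicate 1 the coding transcripts of Neu1 and Tfe3 led by TPM, Neu1-201 at 20.2 against 17.5 for Neu1-202 and Tfe3-205 at 9.49 against 7.83 for Tfe3-212.

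**Figure D4:**
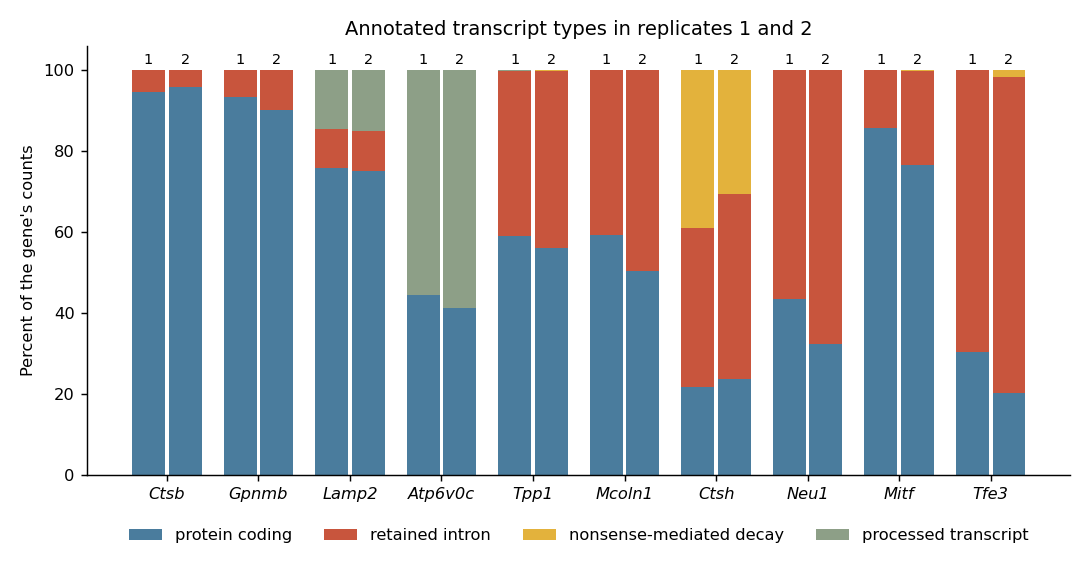
Percent of the counts of 10 lysosomal genes in each annotated transcript type, with a bar for replicate 1 and one for replicate 2 of each gene. Coding transcripts hold over 90% in Ctsb and Gpnmb, while retained-intron transcripts hold most of Neu1 and Tfe3 and a processed transcript most of Atp6v0c, as shares of counts not divided by length.

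The coding transcripts of the most abundant genes also differed among themselves. Lamp2 has alternative last coding exons that give the protein different transmembrane and cytosolic ends. Lamp2-201 carries the end known as LAMP-2A, the form that acts in chaperone-mediated autophagy, and Lamp2-202 that known as LAMP-2B. They share 8 of 9 coding exons. The coding parts of their last coding exons, of 137 bases each without the stop codon, are shown with the positions that differ in capitals. They are from mm10 on the minus strand (chrX:38405435-38405571 and chrX:38421715-38421851).
Lamp2-201: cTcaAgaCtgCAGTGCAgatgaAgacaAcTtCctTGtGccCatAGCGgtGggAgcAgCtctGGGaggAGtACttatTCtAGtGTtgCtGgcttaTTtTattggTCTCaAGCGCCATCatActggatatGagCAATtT
Lamp2-202: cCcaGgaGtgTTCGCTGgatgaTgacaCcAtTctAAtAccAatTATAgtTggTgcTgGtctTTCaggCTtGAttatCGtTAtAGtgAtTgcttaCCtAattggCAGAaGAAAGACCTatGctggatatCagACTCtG
These coding parts carry the same letter at 73 of 137 positions (53.3%). Lamp2-202 held 58.5% and 59.7% of the Lamp2 counts and Lamp2-201 16.2% and 14.1%. Lamp2-202 is longer, and per length the transcripts had 88.2 and 64.8 TPM against 53.3 and 33.1 TPM. In both libraries and on both scales the LAMP-2B transcript was the higher.

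The Psap counts were divided between a pair of transcripts with start sites 6834 bases apart and different first coding exons. The coding parts of these exons are shown here with the start codon in capitals (chr10:60277743-60277782 and chr10:60284501-60284531, plus strand).
Psap-202: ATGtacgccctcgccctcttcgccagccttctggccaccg
Psap-203: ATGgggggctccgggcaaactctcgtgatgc
The other 13 coding exons are shared. Psap-202 held 51.7% and 55.2% of the counts and Psap-203 44.1% and 41.5%. The table made without alignment gave 46.9% and 52.5% for Psap-202 and 43.3% and 34.3% for Psap-203. Neither transcript was thus rare in either library, but the shares rest on how the quantifier splits common reads. Use of the start sites was not measured.

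By counts, 39 of the 40 genes had the same leading transcript in both libraries, beside 86.5% of the protein-coding genes with at least 10 counts in both, and Lgmn was the exception. By TPM it was 34 of 40, beside 77.8%, and Gusb, Mitf, Neu1, Tfe3 and Tfeb differed as well. The background includes genes with few counts, and the part of depth was not tested. Lgmn-201 and Lgmn-202 have the same 1305 coding bases and start sites 16044 bases apart. Lgmn-201, with the upstream start, held 37.4% and 60.7% of the counts, and Lgmn-202 held 61.0% and 37.7%. The table made without alignment gave 39.8% and 69.0% for Lgmn-201. For Ctsc, Ctsc-203 held 77.7% and 76.9% of the counts although it carries 4 exons and 411 coding bases, and Ctsc-201, with 7 exons and 1386 coding bases, held 16.8% and 15.5%. The libraries therefore gave nearly the same division of Ctsc at different totals. Shares of similar transcripts rest on how the quantifier splits common reads. Ctsd-201 held 40.5% and 45.9% of the Ctsd counts in the aligned table, and 44.5% and 19.9% in the table made without alignment.

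Both libraries received the same treatment, and a comparison between them shows how far each gene's level repeated. For each gene the log2 ratio (replicate 2 over replicate 1, of TPM + 1) was taken minus its median over the 14584 genes with at least 10 counts in both. Of the 40 genes, 39 lay within 0.5 log2 units of that median, as did 86.3% of all 14584 genes. The depth was unlike: 39 of the 40 genes had at least 100 counts in both libraries, beside 8796 of the 14584. The part of depth in this difference was not tested. Ctsc was more than 2-fold higher in replicate 2, at 1.00, from 8585 and 20355 counts, and 1.22% of all genes passed the same limit. Its counting interval of ± 0.036 (95%) reached to both sides of the limit. None was more than 2-fold lower, beside 0.487% of all genes. After Ctsc came Cd68 at 0.46, Ctsa at 0.33 and Tfe3 at 0.31. The lowest were the pump genes Atp6ap1 at -0.42, Atp6v1b2 at -0.39 and Atp6v1a at -0.28, followed by Tpp1 at -0.26.

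Above the median lay 23 of the 40 genes, beside 50% of all genes by construction. By role, 8 of 11 proteases, 4 of 6 glycosidases, 5 of 8 membrane proteins and 3 of 3 regulators were above it, against 2 of 7 genes of lipid handling and 1 of 5 pump genes. Among the regulators, the 95% counting intervals of Mitf (0.001 ± 0.113) and Tfeb (0.10 ± 0.19) included 0. The directions depended on the scale. With TMM scaling 34 of the 40 genes were above 0, beside 50.7% of all genes. With DESeq2 size factors 33 were, beside 49.97%. The median over the 40 genes was 0.04 in the gene table and 0.18 with TMM scaling. As deposited, without centring, it was -0.38, beside -0.42 over all genes, so relative to all genes it did not change. In the table made without alignment it was -0.46, and 2 of 40 genes were above 0. That table's centre was taken over 23020 genes. Of the detected protein-coding genes 2423 of 9793 were above 0 there, with a median of -0.30. With that table centred on the 14584 genes of the gene table, the median over the 40 genes was -0.30 and 4 of 40 were above 0. Of those 14584 genes 49.98% were above 0, and the median over the detected protein-coding genes was -0.14. Ctsc had the highest ratio of the 40 genes in all 8 settings tried, and lay between 0.79 and 0.97 above their median. In the table made without alignment its ratio was 0.33, and none of the 40 genes was beyond 2-fold in either direction, beside 2.71% of all genes of that table higher and 3.01% lower. The long noncoding gene Gm26522 overlaps Ctsc on the opposite strand and had 2511 and 4353 counts. The sources used here do not say whether the counting was stranded, so reads of the 2 genes cannot be told apart with certainty, and the part of Gm26522, of RNA input and of the library in the Ctsc difference was not tested. The counts of Ctsd are likewise uncertain, since Gm49369 shares its strand and bases and had 7918 and 9290 counts.

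**Figure D5:**
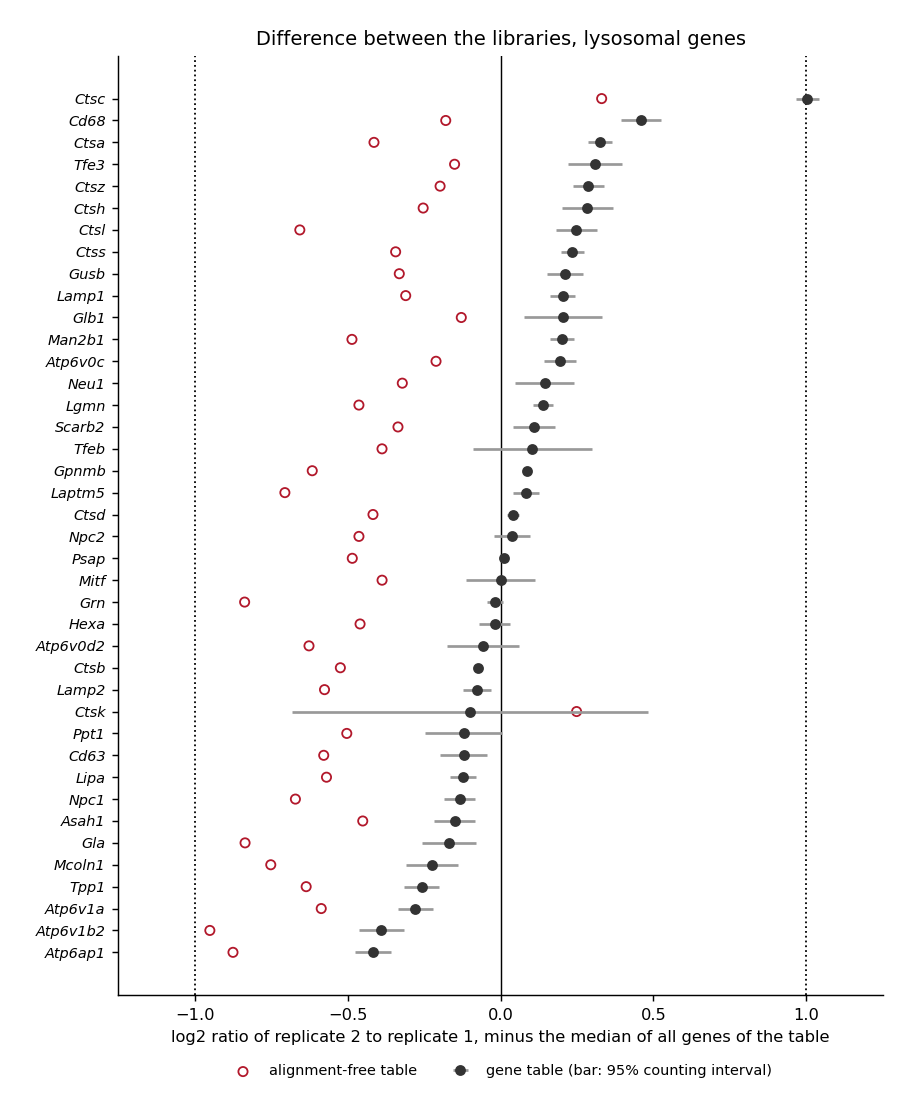
Log2 ratio of replicate 2 to replicate 1 for each of the 40 lysosomal genes, minus the median of all genes of the same table, with filled points for the gene table (bars are 95% counting intervals) and open points for the table made without alignment. Dotted lines mark 2-fold. Ctsc is the highest filled point at 1.00, and 38 of the 40 open points lie to the left of 0. On the scale of the open points, 2423 of 9793 detected protein-coding genes were above 0.

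E-box sequences of the kind that TFEB, TFE3 and MITF bind were searched in promoter windows of 300 bases, 250 before and 50 after each start site, from RefSeq with build GRCm38.p6. For 34 of the 40 genes there were 44 windows, and 32851 windows of all genes served as the background. The core CACGTG, read on both strands, was in 9 of the 44 windows, in 9 genes, and in 7.15% of all windows. The longer form TCACGTGA, which contains the core, was in 5 windows, of Ctsd, Mcoln1, Atp6v1a, Gla and Ctsa, and in 0.974% of all windows. The full CLEAR element, which adds 1 base on each side, was in none of the 44 and in 0.326% of all windows. Stretches of 30 bases around the longer form are shown, with it in capitals, on the strand of the gene.
Ctsd: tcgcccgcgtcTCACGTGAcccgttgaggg
Mcoln1: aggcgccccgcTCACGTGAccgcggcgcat
Atp6v1a: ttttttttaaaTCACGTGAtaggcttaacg
Gla: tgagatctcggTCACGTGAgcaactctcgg
They lie 99 bases before the RefSeq start site in Ctsd (chr7:142387908-142387937), 46 in Mcoln1 (chr8:3500462-3500491), 132 in Atp6v1a (chr16:44139373-44139402) and 195 in Gla (chrX:134601182-134601211). The leading GENCODE transcripts Ctsd-202 (start at chr7:142388038) and Mcoln1-201 (start at chr8:3500457) begin farther upstream, and their spans include the match. Gla has a second copy 228 bases before its start. The levels of these 4 genes ranged from 32.5 TPM for Gla to 1730 for Ctsd, so genes with the same 8 letters near the start stood far apart in level. A match describes the sequence only, and no binding was measured.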

How the data were processed

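Per the deposited readme, the authors made the expected counts and TPM of the gene table and of 1 transcript table from an alignment to the transcriptome, with assembly mm10 and GENCODE annotation M21. A deposited column with each transcript's percent of the TPM of its gene was not used. Estimated counts and TPM of the alignment-free table were made by the authors from the reads and an index. The quantifiers are not named in the sources used here. Replicates were not pooled, and intervals cover counting error only.

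Members, gene lists and alternatives were chosen with earlier results of these data known. All 40 members are named, with the 3 highest and 2 lowest genes of each further list (some of these are not reported here) and the highest marker, and other named markers, transcripts and overlapping genes were chosen after their values were seen. Medians used a pseudocount of 1 TPM and transcript shares the estimated counts. Transcript types, exons and introns came from GENCODE M21. Alternatives were a pseudocount of 0.1 TPM, minimums of 5 TPM or 100 counts, rescaled TPM, CPM, the alignment-free table, each library alone, and TMM (edgeR 4.0.16) or DESeq2 1.42.0 size factors on rounded counts. With 1 group no test was run. Analyses used Python 3.11.15, pandas 2.3.3 and R 4.3.3, and the counting of 2-fold differences was tested on simulated data. Of the 40 members 6 had no promoter entry.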

Additional observations from a re-analysis of the deposited data

How the results depend on the processing

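Each count, median and share was recomputed under the alternatives. Detection gave 39 or 40 of the 40 genes in each. The median log2 level was 7.72 with TPM rescaled without mitochondrial genes and genes under 200 bases, 8.33 in CPM and 5.62 in the alignment-free table, and the protein-coding median moved to 0.887, 1.10 and 0.769. The share of counts was 5.91% of protein-coding counts, 1.68% by TPM and 3.60% by alignment-free counts. The retained-intron share was 7.01% in the alignment-free table, 8.90% as the median over genes within a library, 11.6% as a share of TPM, 6.83% without Psap and, chosen after seeing the data, 8.67% without the 4 genes with the most counts. The cause of these differences was not tested. Beside all protein-coding genes, the share was also lower by alignment-free counts (17.5%) and by TPM (20.6%). The count over 2-fold higher in replicate 2 was 0 in the alignment-free table, 0 with TPM as deposited and 0 with the alignment-free table centred on the genes of the gene table, the last chosen after seeing the data, and it was 1 under the other 4. With either library alone, detection stayed at 40, the median was 6.98 to 7.41, the share of counts 4.44% to 4.45% and the retained-intron share 4.74% to 5.24%. Counts of genes by leading transcript or by a retained-intron limit under TPM and alignment-free counts, given in the report, were chosen after seeing the data. No paired analysis was possible because both libraries belong to 1 group. With 2 libraries no outlier can be tested. Ctsk, at 47 counts, had the widest counting interval (± 0.58 log2 units), followed by Tfeb (± 0.19).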

Other observations

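Other sequences were searched in the same 44 promoter windows. The M-box form TCATGTGA, read on both strands and known from MITF targets, was in 6 windows, of Atp6v0c, Ctss, Gla, Grn, Ppt1 and Tpp1, beside 0.986% of all windows. The AP-1 sequence TGAGTCA was in 5, of Cd68, Glb1, Gpnmb, Neu1 and Psap, beside 5.20%. In Psap, the highest of the 40 genes, it lies 18 bases before the start site (chr10:60277599-60277627), and in Cd68 there are copies 149 and 24 bases before it. The stretches are shown with the match in capitals.
Psap: ctgcgcgacgcTGAGTCAagctgcgccca
Grn, M-box: tgattctctaaTCACATGAtccctagaaat
The Grn match is the same 8 letters read from the other strand. The sequence GAGGAAGT, a form bound by the macrophage factor PU.1, was in 4 windows, of Ctsc, Ctss, Gla and Gusb, beside 3.20% of all windows. These are matches of letters, and no binding was measured.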
